A study of Mus musculus with 18 samples.

Results

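Homeostatic maturation of thymic XCR1+ dendritic cells (DCs) in control mice was read as the difference between CCR7+ and CCR7- cells, on 6 of the 18 microarrays of the study. The 6 arrays were those titled tDC_CTRL, with 3 of each stage, and each of the 19938 genes measured by a single-gene probeset was a member. The control animals (CTRL) were untreated wild-type mice of strain B6 housed free of specific pathogens (SPF). Thymic cells were sorted as CD11c+ and MHCII+, without CD11b and CD172a, with XCR1 and CD8a. Within that gate, cells with CD117 and no CCR7 were called immature, and cells with CCR7 and no CD117 were called homeostatically matured. Of the other 12 arrays, 6 came from untreated B6 mice labelled Ifnar1-KO SPF, which lack a chain of the type I interferon receptor. The rest came from untreated wild-type B6 mice raised germ-free (GF), and each kind again had 3 arrays per stage. These 12 arrays were used to repeat the comparison. They also entered the choice of probesets and the pooled spread behind the standard errors and p-values of the CTRL changes. Whether each array is one mouse or a pool is not stated in the labels; the p-values therefore describe array-to-array spread, which may be technical.

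XCR1+ DCs, also called type 1 conventional DCs, take up dying cells and present their antigens on MHC class I to CD8 T cells. In the thymus they help to delete or divert T cells that recognise the body's own proteins. Maturation is the switch by which a DC stops sampling its surroundings, moves along CCR7 ligands toward T cells and displays antigen with costimulatory molecules. It can be set off by microbes, or can occur in their absence, which is the homeostatic form.

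Values are log2 intensities, a change is the mean of the CCR7+ arrays minus the mean of the CCR7- arrays, and ± gives its standard error from limma (n = 3 arrays per stage). A change of 1 is a doubling. A gene is said to rise or fall when its Benjamini-Hochberg adjusted p, over all 19938 genes, was below 0.05. Array levels have no fixed zero, so the near-background level was taken from 1027 olfactory receptor genes, of which 95% lay at or under 4.27 in CCR7- and 4.45 in CCR7+ cells. A change that starts or ends there may be understated, and such genes are called near background below. In sorted bulk cells a lower share of expressing cells and less RNA per cell cannot be told apart.

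The sort genes were read first, as a check of the labels, and they are not findings. Ccr7 read 9.03, 8.98 and 8.95 on CCR7- replicates 1, 2 and 3 and 11.88, 12.04 and 12.03 on the CCR7+ arrays. Kit, which encodes CD117, read 9.06, 8.98 and 9.07 against 5.88, 5.98 and 5.74. On all 6 arrays both genes went with the labelled stage, including the replicate 2 pair, whose array codes carry the letters of the opposite stages. Xcr1, the gate gene and receptor for XCL1, read 11.56, 11.52 and 11.44 in CCR7- cells and only 6.42, 6.48 and 6.30 in CCR7+ cells. Its transcript thus stood 5.11 ± 0.60 lower in cells still sorted as XCR1+. The gate genes Itgax (CD11c, -3.13 ± 0.34) and Cd8a (-0.73 ± 0.18) also fell. Itgam (CD11b) was near background in both stages, and Sirpa (CD172a) read 4.69 to 5.42 in CCR7- and 5.36 to 6.37 in CCR7+ cells. Sirpa was called higher (0.89 ± 0.28) although its arrays overlapped, and the call was lost when only CTRL arrays were fitted.

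Markers of other thymic cells were low but not level. Across 21 thymocyte genes the array means were 4.72, 4.63 and 4.91 in CCR7- cells and 5.73, 5.12 and 5.80 in CCR7+ cells, with linear intensities summing to 653 to 787 and 977 to 1782. Of these genes 5 rose and 0 fell, against 12.6% and 13.6% of all genes, and 7 in CCR7- and 5 in CCR7+ cells were near background, Rag2 and Ptcra in both. With 1 array left out at a time 1 to 7 rose. Only 2 rose when CCR7- replicate 1, CCR7- replicate 2 or CCR7+ replicate 1 was left out, and 1 rose without CCR7+ replicate 3. With replicate number as a block 9 rose. With array weights 11 rose and 1 fell, and with only CTRL arrays fitted 12 rose and 1 fell. Cd3d, a T cell receptor subunit, read 4.93, 4.71 and 5.61 against 7.45, 5.97 and 7.33. Replicate 2 thus carried the least thymocyte signal of the CCR7+ arrays. In 15 macrophage genes (Adgre1, C1qa and 8 others near background in both stages) the sum went from 444 to 476 up to 829 to 1304; 2 rose, Spic (2.84 ± 0.41) and Vcam1 (1.94 ± 0.22), and 1 fell, Csf1r (5.61, 5.65 and 5.55 against 4.44, 4.59 and 4.77). In 14 SIRPA+ DC genes it went from 834 to 1309 up to 3771 to 4999; 3 rose and 2 fell (median 0.04), from S100a4 (2.79 ± 0.37) to Klf4 (-1.21 ± 0.32), while Cd209a, Clec10a and Mgl2 were near background. For the B cell, plasmacytoid DC, thymic epithelial, red cell, natural killer and granulocyte lists 0 to 2 members rose and 0 to 2 fell; 15 of 16 granulocyte, 10 of 13 natural killer and 9 of 13 B cell genes were near background in CCR7- cells. The part of other cells in the results below was not tested.

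Maturation changed 5218 genes, 26.2% of those measured: 2514 (12.6%) rose and 2704 (13.6%) fell. The counts of list members given below are to be read against these shares. The changes were large. A total of 903 genes (4.53%) rose and 1484 (7.44%) fell by at least 1, 105 rose and 154 fell by at least 3, and 4 rose and 6 fell by at least 5. The median over all genes was 0.07. Of the genes near background in both stages 402 were called higher and 35 lower, and of the olfactory receptor genes 33 and 2, so small rises at low level were more often called than small falls. At the other end, 3165 genes had a 95% interval within 0.25 of 0, among them abundant Actb (0.05 ± 0.05), the translation factor Eef1a1 (-0.02 ± 0.07) and Cst3, a protease inhibitor typical of DCs (0.10 ± 0.06). The 3 CCR7+ arrays lay wholly above the 3 CCR7- arrays for 28.8% of genes and wholly below for 20.2%, 49% together, so separation of the arrays alone says little here. Of the 5218 genes called, 5148 also separated. The plot of mean levels in CCR7- against CCR7+ cells shows the spread.

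**Figure D1:**
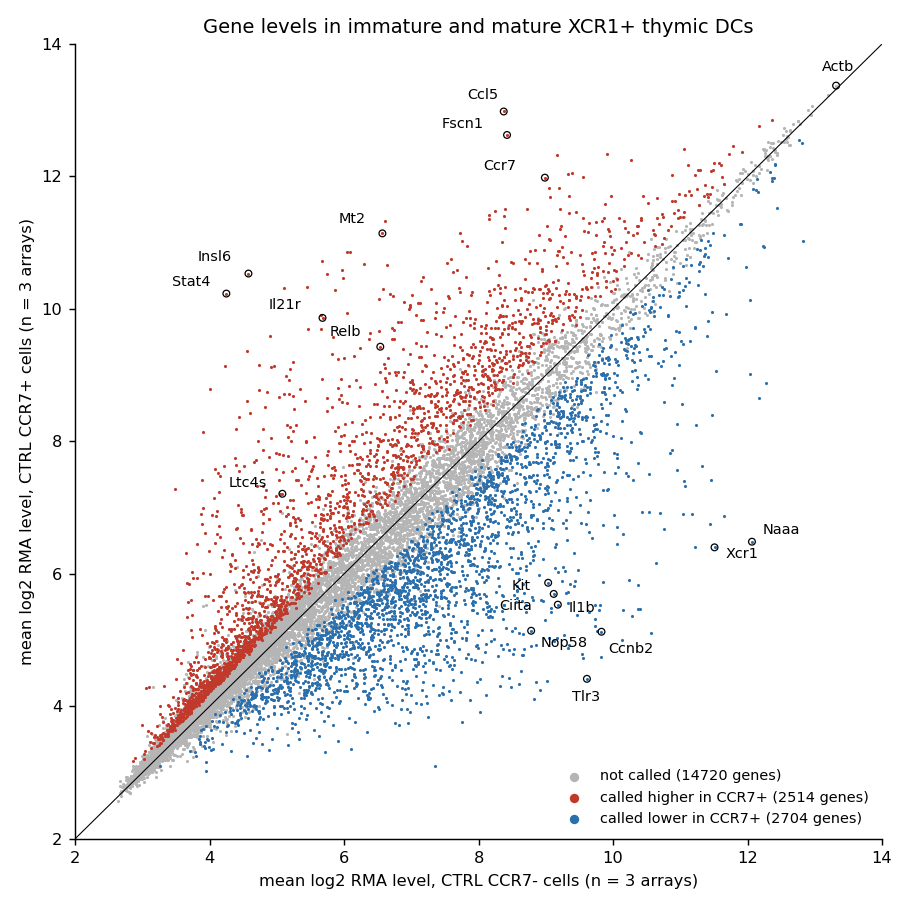
Mean log2 level of each gene over the 3 CTRL CCR7- arrays (horizontal) and the 3 CTRL CCR7+ arrays (vertical), with 2514 genes higher, 2704 lower and 14720 not called in separate colours. Genes on the diagonal had equal means; labelled genes far from it include Stat4 and Insl6 above and Naaa and Xcr1 below.

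The 20 genes with the largest rises went up by 4.38 to 5.98. Stat4, which relays interleukin 12 and type I interferon signals, read 4.40, 4.13 and 4.21 in CCR7- cells and 10.30, 10.55 and 9.85 in CCR7+ cells. It went from near background to among the higher levels on the array, a measured 63.2-fold rise (5.98 ± 0.17, adjusted p 4.11e-11). Tnfrsf4 (OX40), a TNF receptor best known on activated T cells, read 5.35, 5.72 and 5.94 against 10.70, 10.65 and 10.81. Its CCR7+ arrays lay within a narrow band well above the other stage, a rise of 5.05 ± 0.26. Anxa3, a membrane-binding annexin, read 6.45, 6.56 and 6.83 against 11.22, 11.32 and 11.42 and rose by 4.71 ± 0.21 (adjusted p 1.48e-09). Ccl5, a chemokine for T cells, averaged 8.37 ± 0.44 in CCR7- and 12.98 ± 0.02 in CCR7+ cells (SD, n = 3 each) and rose by 4.61 ± 0.33. Its CCR7+ arrays were almost identical. Rises of similar size were found in Nudt17 (4.77 ± 0.25), the metal-binding metallothionein Mt2 (4.57 ± 0.31), the CASTOR family member Castor2 (4.43 ± 0.35), the death receptor Fas (4.42 ± 0.50), the paired membrane proteins Tmem176a (4.62 ± 0.31) and Tmem176b (4.38 ± 0.25), and Atxn1 (4.48 ± 0.73), whose CCR7- arrays read 6.66, 4.83 and 6.48. Of the 20, Stat4, Scin and Slco5a1 started near background.

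The 20 largest falls ran from -4.61 to -5.58. Naaa, a lysosomal amidase typical of XCR1+ DCs, read 12.16, 11.94 and 12.10 in CCR7- cells and 6.76, 6.21 and 6.49 in CCR7+ cells, a 47.8-fold difference. Cd180, a receptor that modulates responses to bacterial lipids, read 11.27, 11.19 and 11.20 against 6.59, 6.29 and 6.34 and fell by 4.81 ± 0.42. Alox5ap, the helper protein of leukotriene synthesis, read 11.69, 11.63 and 11.63 against 6.90, 6.86 and 6.85 and fell by 4.78 ± 0.49. Both fell from high levels, with replicates in each stage close together. Kmo, an enzyme of tryptophan breakdown, read 8.72, 8.86 and 8.91 against 3.85, 4.23 and 4.25, down to near background (-4.72 ± 0.19). Slamf8 (-4.75 ± 0.32), Plac8 (-4.70 ± 0.41), Ms4a6c (-4.66 ± 0.40), the nucleolar protein Sdad1 (-4.63 ± 0.27) and the integrin-linked adaptor Parvg (-4.61 ± 0.38) were also among them. Tlr3, Kmo, Ms4a6c and Sdad1 ended near background.

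**Figure D2:**
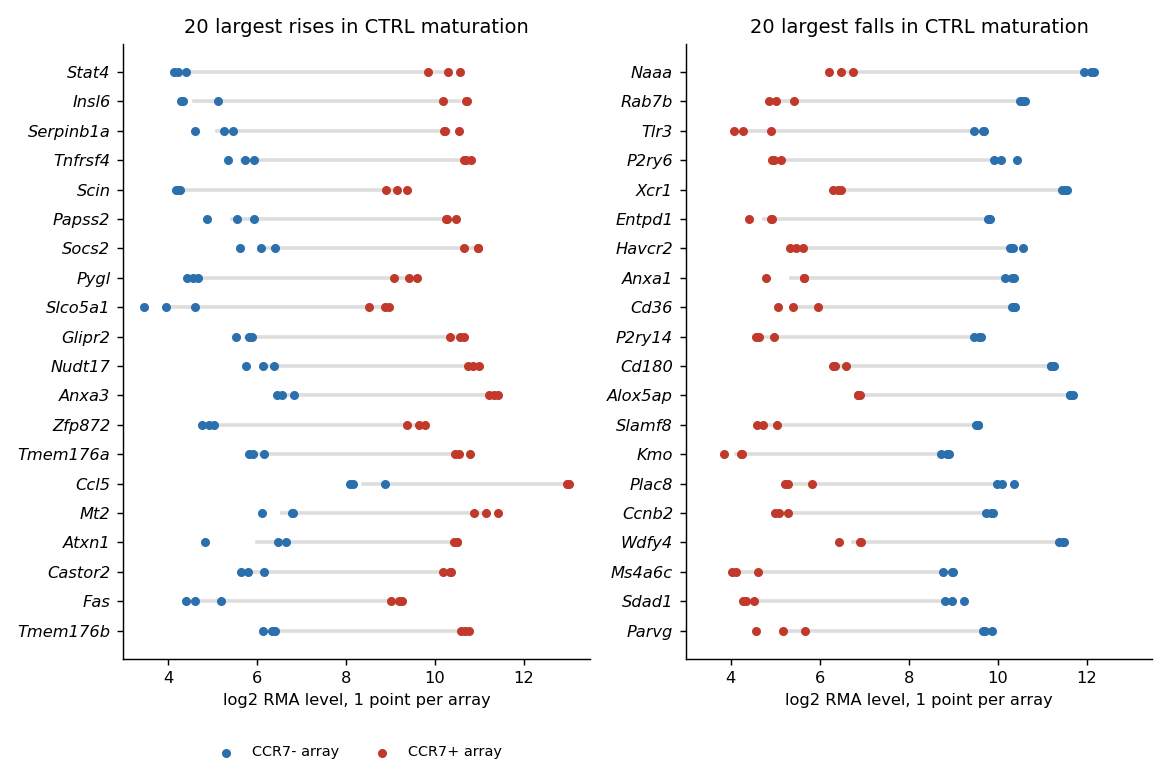
Log2 level of the 20 genes with the largest rises and the 20 with the largest falls, 1 point per CTRL array, coloured by stage. In all 40 genes the 3 CCR7+ points lie on one side of the 3 CCR7- points, which the choice of these genes required.

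Genes by which mature DCs of many tissues are known moved almost as a block. Of 28 measured, 27 rose and 1 fell, with a median of 3.08 against 0.07 for all genes. Without Ccr7, on which the stages were sorted, 26 of 27 rose. Like all lists here, this one was written with earlier results of these data known. Its count is therefore a description and not an independent test. Pdcd1lg2 (PD-L2), an inhibitory ligand for T cells, read 4.33, 5.37 and 5.19 against 9.25, 9.27 and 8.91. Il15ra, which presents interleukin 15 to neighbouring cells, read 6.58, 6.62 and 6.71 against 10.35, 10.89 and 10.74. Fscn1, which bundles actin in DC dendrites, read 8.48, 8.14 and 8.65 against 12.49, 12.73 and 12.66. In each the stages were several log2 units apart. The exception was Cd86, the costimulator often used to score maturation, which read 10.39, 10.64 and 10.68 against 10.04, 10.01 and 9.99. Its CCR7+ arrays lay below all CCR7- arrays, a fall of 0.56 ± 0.11 (adjusted p 0.001), whereas its partner Cd80 rose by 1.44 ± 0.24.

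Receptors that position cells fell more often than they rose. Of 36 chemotactic and lipid-mediator receptors other than the sort gene Ccr7, 3 rose and 10 fell (median 0.04), against 12.6% and 13.6% of all genes. Ptger4, a prostaglandin E2 receptor, read 7.71, 8.12 and 7.59 against 9.75, 10.22 and 9.60 and rose by 2.05 ± 0.24. Cxcr3, a receptor for interferon-induced chemokines, read 8.66, 8.47 and 8.40 against 4.76, 4.59 and 5.01 and fell by 3.72 ± 0.22. The nucleotide receptors P2ry6 (-5.13 ± 0.33) and P2ry14 (-4.84 ± 0.35) were among the leading falls. The nucleotide-degrading enzyme Entpd1 (CD39) fell beside them, by 5.07 ± 0.49.

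Of 29 chemokines 10 rose and 3 fell (34.5% and 10.3%, median 0.17), against 12.6% and 13.6% of all genes. Ccl19, a CCR7 ligand, read 5.83, 5.71 and 5.43 against 10.12, 9.07 and 9.90 and was lowest on replicate 2 of the CCR7+ arrays. Ccl17, a ligand of CCR4, rose by 2.36 ± 0.37, and Cx3cl1, a chemokine that can stay membrane-bound, by 2.29 ± 0.37. The interferon gamma-induced Cxcl9 read 11.42, 11.52 and 11.47 against 8.59, 8.45 and 8.14 and fell by 3.08 ± 0.36. Inflammatory Ccl3 read 7.76, 9.92 and 9.21 against 5.63, 6.88 and 6.18, with replicate 2 highest in each stage, and fell by 2.73 ± 0.57. Ccl4 fell by 2.60 ± 0.31.

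Cell skeleton and adhesion genes were split. Of 35 actin and tubulin genes 13 rose and 8 fell (37.1% and 22.9%, median 0.12), against 12.6% and 13.6% of all genes. Scin, which severs actin filaments, read 4.19, 4.23 and 4.27 against 9.15, 9.38 and 8.90. Tubb2b, a tubulin best known in neurons, rose by 3.27 ± 0.32 and Actn1, an actin crosslinker, by 3.07 ± 0.39. The activator of branched actin Was (-1.36 ± 0.19) and the actin-binding Dbn1 (-1.33 ± 0.21) and Coro1a (-1.24 ± 0.15) fell. Of 23 integrins and their ligands 6 rose and 8 fell (26.1% and 34.8%, median 0.06). Itgb8, whose integrin activates TGF-beta, read 4.17, 3.84 and 4.22 against 7.27, 7.71 and 7.77 and rose by 3.50 ± 0.15. Itgae (CD103), which binds epithelial E-cadherin, read 10.29, 10.46 and 10.36 against 5.98, 5.80 and 5.71. Itgb2 and Itgal, the chains of LFA-1, fell (-3.61 ± 0.16 and -3.37 ± 0.19). Icam1, the ligand of LFA-1, and the integrin chain Itga4 rose by 1.23 ± 0.13 and 1.37 ± 0.27.

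Signals to T cells rose more often than they fell. Of 24 costimulators and checkpoint ligands 12 rose and 6 fell (median 0.81). Slamf1, a homophilic receptor of T cells and DCs, read 3.88, 3.75 and 4.07 against 8.07, 8.38 and 7.99 and was highest on replicate 2. Cd274 (PD-L1) read 6.40, 6.42 and 6.93 against 10.02, 10.58 and 10.31, and the inhibitory ligand Cd200 rose by 3.22 ± 0.14. The inhibitory ligands Cd274 and Cd200 thus rose beside the costimulator Cd80, whereas the costimulator Cd86 fell, as given above. Havcr2, which encodes TIM-3 (-4.93 ± 0.40), its ligand Lgals9 (-1.98 ± 0.23) and the inhibitory receptor Btla (-2.47 ± 0.32) fell. Of 27 cytokines 12 rose and 4 fell (44.4% and 14.8%, median 0.23), against 12.6% and 13.6% of all genes. With 1 array left out at a time 8 to 11 rose, and 11 were near background in both stages. Il15, which sustains memory CD8 and natural killer cells, read 7.20, 7.84 and 7.99 against 10.42, 10.69 and 10.63 and rose by 2.91 ± 0.20, as its presenting chain Il15ra did by 4.03 ± 0.20. Il12b, a subunit of interleukins 12 and 23, rose by 2.62 ± 0.50. Il1b (-3.64 ± 0.44), Il18 (-3.51 ± 0.24) and Tgfb1 (-2.42 ± 0.24) fell.

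Transcripts of cytokine receptors changed in both directions. Of 32 cytokine and growth factor receptors other than the sort gene Kit, 8 rose and 5 fell (median 0.05). The shares of all genes were 12.6% and 13.6%, so the falls lay near the share of all genes. Il21r, the interleukin 21 receptor, read 5.67, 5.47 and 5.90 against 9.67, 10.01 and 9.91. Il4ra rose by 3.33 ± 0.12 and Il7r, which also serves the epithelial cytokine TSLP, by 3.10 ± 0.20. Il2ra (CD25) read 4.16, 4.10 and 4.04 against 6.18, 7.96 and 6.49, highest on replicate 2. These 4 receptors rose, while Ifngr1, the ligand-binding chain for interferon gamma, read 9.83, 9.43 and 9.54 against 6.75, 6.83 and 6.67 and fell by 2.85 ± 0.24. Il6ra (-1.84 ± 0.29) and Tgfbr2 (-1.17 ± 0.15) fell. Of 23 TNF receptor genes 8 rose, 14 with array weights, and 2 fell (median 0.26): Tnfrsf1b (TNFR2) rose by 3.18 ± 0.28 and Tnfrsf9 (4-1BB) by 2.77 ± 0.22, while Tnfrsf1a (TNFR1) (-1.34 ± 0.22) and Tnfrsf21 (-2.36 ± 0.29) fell. The 2 receptors for TNF therefore moved in opposite directions.

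Downstream of these receptors, NF-kB genes rose together. Of 27 subunits, regulators and TRAF adaptors 22 rose and 0 fell, with a median of 1.20. Relb, the subunit tied to DC maturation, read 6.49, 6.63 and 6.50 against 9.22, 9.55 and 9.51 and rose by 2.89 ± 0.21. Birc2, a ubiquitin ligase that restrains the noncanonical branch, rose by 2.96 ± 0.25, and Traf1 by 1.93 ± 0.17. The 5 that did not pass were Nfkbid (-0.17 ± 0.41), Ikbkg (0.25 ± 0.14), Traf4 (0.16 ± 0.17), Tnip2 (0.26 ± 0.31) and Cyld (0.26 ± 0.15). The kappa B motif, searched as GGGA and TTCC with 2 bases of any kind between them on both strands, lay within 250 bases before to 50 after the start of 3 of 24 of these genes (12.5%), against 1.60% of 15614 genes. It lay in 0 of 20 mature DC genes, 0 of 13 of the leading rises and 2 of 17 of the leading falls that had a window. Of 19 JAK, STAT and SOCS genes 9 rose and 1 fell (median 0.61). Socs2, a brake on cytokine receptors, rose by 4.82 ± 0.37, Pias3 by 2.10 ± 0.28 and Stat3 by 1.36 ± 0.19. The single fall, Socs5 (-0.64 ± 0.19), was lost without CCR7- replicate 1 or CCR7+ replicate 2, whereas 2 genes fell with replicate number as a block or with array weights and 3 when only CTRL arrays were fitted.

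Transcription factors changed in both directions. Of 53 measured, 17 rose and 13 fell (median 0.16). Irf1 read 7.66, 7.33 and 7.59 against 10.51, 10.72 and 10.84 and rose by 3.17 ± 0.25. Irf4, a factor of SIRPA+ DCs and of DC migration, read 4.38, 4.18 and 3.92 against 6.30, 7.22 and 6.13 and rose by 2.39 ± 0.30 from near background. Myc read 8.96, 8.44 and 8.27 against 5.57, 5.67 and 5.48 and fell by 2.98 ± 0.21. Ahr, the receptor for tryptophan products and xenobiotics (-2.28 ± 0.19) and Runx1 (-1.86 ± 0.24) fell. Irf8, on which XCR1+ DCs depend, read 11.02, 10.88 and 10.76 against 10.32, 10.96 and 10.58, so the stages overlapped (-0.27 ± 0.14, adjusted p 0.197). The DC factor Zbtb46 did not pass either (0.05 ± 0.16).

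Most identity genes of the XCR1+ DC fell. Of 25, 20 fell, 3 rose and 2 did not pass, with a median of -2.81. Clec9a, the receptor for dead cells, read 10.88, 10.93 and 11.02 against 8.44, 8.65 and 7.70 and fell by 2.68 ± 0.23. Rab7b, a late endosomal GTPase, read 10.61, 10.50 and 10.57 against 5.02, 5.42 and 4.87. Wdfy4, needed for cross-presentation, read 11.46, 11.38 and 11.49 against 6.91, 6.93 and 6.43 and fell by 4.69 ± 0.40. Those that rose were the uptake receptor Ly75 (DEC-205, 1.58 ± 0.25) and the lineage factors Batf3 (0.95 ± 0.20) and Id2 (0.28 ± 0.06). The 2 not called were Irf8 and the growth factor receptor Flt3 (0.21 ± 0.19).

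Sensing genes fell more often than they rose. Of 21 Toll-like receptors and adaptors 10 fell and 2 rose (median -0.60), and of 18 inflammasome genes 7 fell and 2 rose (median -0.36). Tlr3, the sensor of double-stranded RNA, read 9.70, 9.66 and 9.47 against 4.90, 4.28 and 4.07 and fell by 5.20 ± 0.22. Myd88, the adaptor of most Toll-like receptors, read 8.28, 8.23 and 8.23 against 6.12, 6.62 and 6.93 and fell by 1.69 ± 0.22. Naip5, which detects flagellin, fell by 1.84 ± 0.30, while Casp4, the sensor of cytosolic lipopolysaccharide, rose by 1.68 ± 0.18. The other inflammasome rise, Gsdmd (0.94 ± 0.26), was lost without CCR7- replicate 1 or CCR7+ replicate 3. Uptake receptors lay nearer the shares of all genes (13.6% lower, 12.6% higher): of 30, 7 fell (23.3%) and 5 rose (16.7%), 3 without CCR7- replicate 1 or 2 or CCR7+ replicate 1 or 3 (median 0.05), with 15 near background in both stages. Cd36, a scavenger receptor, read 10.40, 10.36 and 10.33 against 5.96, 5.40 and 5.05, and the inhibitory Fc receptor Fcgr2b fell by 2.57 ± 0.21. Mfge8, a bridge between dying cells and phagocytes, rose by 3.44 ± 0.20.

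Antigen processing genes moved in both directions. Of 35 lysosomal genes 14 rose and 12 fell (median -0.11). With 1 array left out at a time 12 to 14 rose and 9 to 11 fell. Lgmn, an endopeptidase that cuts antigens, read 6.88, 6.84 and 6.48 against 10.23, 10.42 and 9.92, and the membrane proteins Lamp1 (3.03 ± 0.16) and Cd63 (2.67 ± 0.62) rose with it. Man2b1, a mannosidase, read 11.02, 10.81 and 11.00 against 7.89, 7.44 and 7.38, and the thioesterase Ppt1 (-3.38 ± 0.37) and the lipase Lipa (-2.93 ± 0.42) fell. In the MHC class II pathway 8 of 15 measured genes fell and 4 rose (median -0.40). Ciita, the transactivator of class II genes, read 9.19, 9.07 and 9.09 against 5.69, 5.63 and 5.77 and fell by 3.42 ± 0.21. The peptide editor H2-DMa (-2.98 ± 0.23) and its inhibitor H2-Ob (-2.61 ± 0.39) fell. The class II chain H2-Ab1 fell by only 0.43 ± 0.09, and H2-Aa did not pass (-0.18 ± 0.07, adjusted p 0.0928). The largest rise of the list was in Cd83 (1.24), and Rfx5 (0.61) and Ifi30 (0.57) were also higher. Of 17 class I genes 7 rose and 4 fell (median 0.21). Rises were found in the class I transactivator Nlrc5 (1.84 ± 0.39), the peptide editors Tapbpl (1.88 ± 0.14) and Tapbp (1.25 ± 0.26) and the proteasome activator Psme2 (1.14 ± 0.16). The largest change of the list was the fall of Wdfy4 (-4.69 ± 0.40), and Pdia3 (-0.71), Calr (-0.68) and Canx (-0.40) were also lower.

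Immediate early genes, which respond within minutes to stimulation and to cell handling, were uneven between arrays. Of 32, 10 fell and 4 rose (median 0.05), and 6 fell with both replicate 1 arrays left out. Egr2 read 9.17, 10.10 and 9.15 against 5.78, 5.77 and 6.61 and fell by 3.42 ± 0.38. Fos read 10.08, 10.56 and 9.95 against 8.13, 8.90 and 8.33 and was highest on replicate 2 in each stage. The list mean was 7.28, 7.64 and 7.33 in CCR7- and 7.06, 7.38 and 7.14 in CCR7+ cells, again highest on replicate 2. Nr4a1 fell by 2.32 ± 0.36, whereas its relatives Nr4a2 (0.88 ± 0.48) and Nr4a3 (0.76 ± 0.30) did not pass. The MAPK pathway inhibitor Spred1 rose by 2.83 ± 0.26 and the G protein regulator Rgs1 by 2.01 ± 0.36.

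The most uniform list was mitosis. All 45 measured genes of mitosis and G2/M fell, each by at least 1, with a median of -2.86, against 13.6% of all genes that fell. Ccnb2, a mitotic cyclin, averaged 9.83 ± 0.08 in CCR7- and 5.13 ± 0.14 in CCR7+ cells (SD, n = 3 each) and fell by 4.70 ± 0.42. Kif23, a kinesin of cytokinesis, read 9.34, 9.30 and 9.34 against 5.39, 5.03 and 4.24. Top2a, which untangles chromosomes, read 10.22, 10.05 and 10.16 against 6.98, 6.77 and 6.05. The spindle motor Kif11 read 8.65, 8.67 and 8.68 against 4.95, 4.66 and 4.74. In CCR7+ cells 15 of the 45 genes were near background. Of 41 DNA replication and G1/S genes 35 fell and 1 rose, with a smaller median of -1.54. The cell cycle factor E2f8 (-3.94 ± 0.28), the primase Prim1 (-3.49 ± 0.28) and the ribonucleotide reductase subunit Rrm2 (-3.40 ± 0.20) fell. The one that rose was Gins3, part of the replicative helicase (1.65 ± 0.20).

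The promoters of the mitotic genes share letters that the choice of the list did not use. The cell cycle genes homology region (CHR), searched as TTTGAA on both strands, binds the DREAM complex, which silences mitotic genes in resting cells, and the CCAAT box, searched as CCAAT on both strands, binds NF-Y. From RefSeq promoter windows of 250 bases before to 50 after the start (GRCm38.p6), TTTGAA was present in 29 of 37 mitosis genes with a window (78.4%), in 7 of 36 G1/S genes (19.4%) and in 17.3% of 15614 measured genes. CCAAT was present in 75.7%, 63.9% and 41.7%. These matches are descriptions of the letters and no evidence of binding. The 4 stretches below, from 100 bases before to 20 after the start, are from genes with large falls and are shown because both motifs lie close together in each; capitals mark TTTGAA and CCAAT or their reverse complements, TTCAAA and ATTGG. They lie at chr9:70421535-70421654 (minus strand) for Ccnb2, chr9:61946780-61946899 (minus) for Kif23, chr19:37376282-37376401 (plus) for Kif11 and chr11:99024170-99024289 (minus) for Top2a.
Ccnb2: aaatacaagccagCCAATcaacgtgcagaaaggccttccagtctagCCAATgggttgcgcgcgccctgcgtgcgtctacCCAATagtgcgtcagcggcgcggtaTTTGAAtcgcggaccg
Kif23: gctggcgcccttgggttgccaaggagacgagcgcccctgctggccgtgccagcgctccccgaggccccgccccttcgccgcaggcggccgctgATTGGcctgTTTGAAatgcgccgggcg
Kif11: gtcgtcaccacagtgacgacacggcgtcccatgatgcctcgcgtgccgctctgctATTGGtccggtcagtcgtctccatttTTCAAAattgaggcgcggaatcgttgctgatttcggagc
Top2a: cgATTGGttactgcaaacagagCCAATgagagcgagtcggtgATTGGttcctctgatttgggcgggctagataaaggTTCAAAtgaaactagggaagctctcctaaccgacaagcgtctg
The CHR letters lie at +5 to +10 from the start in Ccnb2 and +3 to +8 in Kif23, and at -19 to -14 in Kif11 and -23 to -18 in Top2a. Ccnb2 and Top2a each hold 3 CCAAT boxes upstream of the CHR, while Kif23 and Kif11 hold 1.

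The list of cell cycle brakes and D cyclins, which also holds Cdk4, did not move as one. Of 23 brakes and D cyclins 8 rose and 6 fell (median 0.29). Gadd45b, a stress and NF-kB target, read 8.10, 8.28 and 8.09 against 10.92, 11.75 and 11.57. Ccng2, a cyclin of resting cells, rose by 2.99 ± 0.24 and Cdkn2b, an inhibitor of CDK4 and CDK6, by 2.76 ± 0.24. Among genes that drive the cycle, Cdk4 read 9.37, 9.27 and 8.96 against 7.11, 7.14 and 7.09 and fell by 2.08 ± 0.17. Ccnd1 fell by 1.83 ± 0.23, whereas Ccnd2 rose by 2.09 ± 0.24. The brake Btg2 also fell (-1.48). Of 23 BCL2 family and apoptosis genes 8 rose and 4 fell (median 0.32). The survival protein Bcl2l1 rose by 2.06 ± 0.30 and Cflar, which blocks death receptors, by 1.57 ± 0.20 beside Fas, while the caspase Casp6 fell by 2.30 ± 0.27. Bcl2 did not pass (-0.22 ± 0.19).

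**Figure D3:**
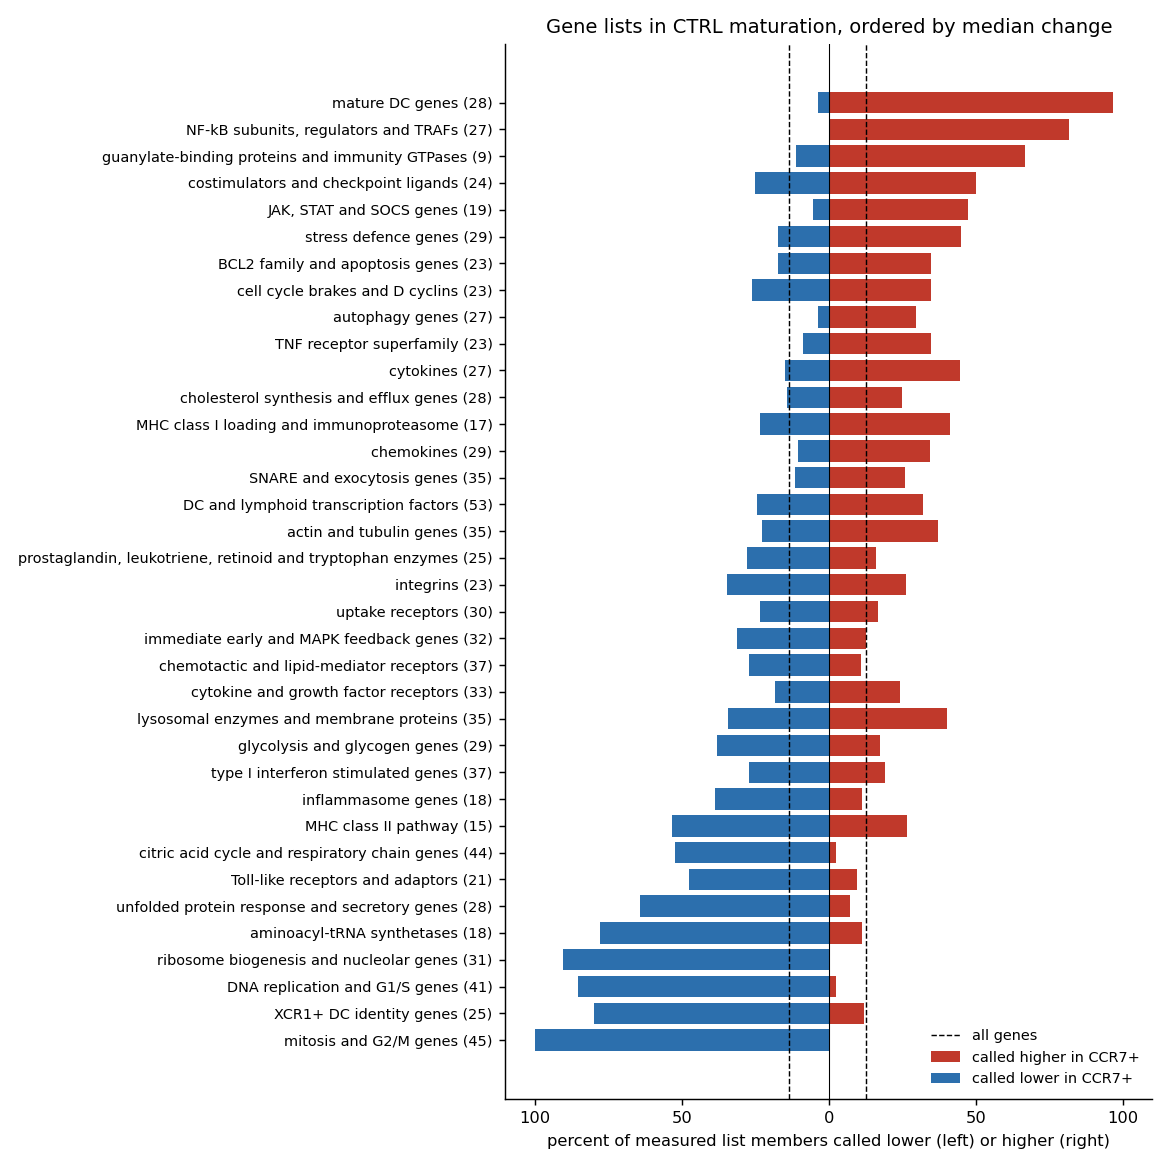
Percent of the measured members of each gene list shown that fell and rose, with dashed lines at the share of all genes (13.6% lower, 12.6% higher). Mitosis and ribosome biogenesis reach 100% and 90.3% lower, and mature DC genes and NF-kB genes 96.4% and 81.5% higher.

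Genes of the growth machinery fell as well. Of 31 ribosome biogenesis genes 28 fell and 0 rose, with a median of -1.43. Nop58, a core protein of small nucleolar RNPs, read 8.75, 8.89 and 8.71 against 5.26, 5.12 and 5.04 and fell by 3.64 ± 0.28. Wdr12 (-2.75 ± 0.32), Dkc1, which makes pseudouridine in ribosomal RNA (-2.67 ± 0.27), and Rrs1 (-2.61 ± 0.41) fell. The 3 that did not pass were Ncl (-0.55 ± 0.22), Npm1 (-0.32 ± 0.13) and Polr1c (-0.01 ± 0.22). The E-box CACGTG, the site letters of MYC, was present in 6 of 26 of these genes (23.1%) against 9.50% of all measured genes; this motif was chosen after the values were seen. Of 18 aminoacyl-tRNA synthetases 14 fell and 2 rose (median -1.21). Farsb read 8.59, 8.23 and 8.32 against 5.39, 5.88 and 5.33. The 2 that rose were Wars (0.95 ± 0.12), which interferon gamma is known to induce, and Kars (0.49 ± 0.12).

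Genes of protein folding in the endoplasmic reticulum also fell. Of 28 unfolded protein response and secretory genes 18 fell and 2 rose (median -0.71). The disulfide isomerase Pdia4 read 9.56, 9.64 and 9.39 against 6.88, 6.74 and 6.66, Pdia6 9.97, 10.16 and 9.94 against 7.56, 7.68 and 7.32, and the chaperone partner Creld2 9.04, 9.12 and 9.17 against 6.95, 6.60 and 6.48. The stages lay more than 2 apart in each. Atf6, the sensor that activates such genes, fell by 2.08 ± 0.24, and Hspa5 (BiP), the main chaperone, read 11.47, 11.63 and 11.33 against 9.99, 9.86 and 9.99. Sel1l, of the degradation machinery, rose by 0.92 ± 0.15. The endoplasmic reticulum stress element (ERSE) joins the CCAAT box of NF-Y to the CCACG of ATF6 at a fixed distance. Searched as CCAAT and CCACG with 9 bases of any kind between them on both strands, and chosen after the values were seen, it was present in 7 of 25 of these genes (28%) against 21 of 15614 measured genes; every match contains a CCAAT box. Stretches from -150 to +10 of the start (RefSeq, GRCm38.p6) are shown for Pdia6 (chr12:17266439-17266598, plus), Creld2 (chr15:88819496-88819655, plus) and Hspa5 (chr2:34771940-34772099, plus), with the match in capitals, because the element is rare elsewhere.
Pdia6: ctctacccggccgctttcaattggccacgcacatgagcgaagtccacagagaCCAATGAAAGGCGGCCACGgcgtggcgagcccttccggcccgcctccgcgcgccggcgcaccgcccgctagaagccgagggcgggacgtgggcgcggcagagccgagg
Creld2: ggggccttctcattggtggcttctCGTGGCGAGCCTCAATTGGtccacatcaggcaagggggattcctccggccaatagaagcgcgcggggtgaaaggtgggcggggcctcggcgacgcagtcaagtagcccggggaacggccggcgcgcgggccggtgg
Hspa5: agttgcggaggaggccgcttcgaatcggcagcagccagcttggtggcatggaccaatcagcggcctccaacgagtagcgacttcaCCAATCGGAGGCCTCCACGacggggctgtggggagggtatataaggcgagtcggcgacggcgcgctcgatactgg
The matches lie at -98 to -80 in Pdia6 and -65 to -47 in Hspa5 on the gene's strand, and at -126 to -108 in Creld2 on the opposite strand.

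Energy genes fell more often than they rose. Of 44 citric acid cycle and respiratory chain genes 23 fell and 1 rose (median -0.50), with 15 falling without CCR7+ replicate 3. Idh2, a mitochondrial isocitrate dehydrogenase, read 8.88, 8.75 and 8.67 against 6.04, 6.31 and 6.13 and Fh1, the fumarase, fell by 2.05 ± 0.35. Of 29 glycolysis and glycogen genes 5 rose and 11 fell (17.2% and 37.9%, median -0.14), against 12.6% and 13.6% of all genes. With 1 array left out at a time 8 to 10 fell. Pygl, which breaks down glycogen, read 4.55, 4.43 and 4.68 against 9.59, 9.42 and 9.07, and Pfkfb3, which stimulates glycolysis, rose by 3.11 ± 0.18. The glycolytic enzymes Ldha (-2.58 ± 0.30) and Hk2 (-2.13 ± 0.20) fell. The neuronal enolase Eno2 rose by 3.08 ± 0.39 and the glucose transporter family member Slc2a6 by 2.52 ± 0.26. Of 28 cholesterol genes 7 rose and 4 fell (25.0% and 14.3%, median 0.22), so the falls lay near the 13.6% of all genes. Only 1 fell with both replicate 1 arrays left out. Idi1, an isomerase of sterol synthesis, read 6.37, 5.57 and 6.20 against 10.37, 9.82 and 9.63, and the cholesterol exporter Abcg1 rose by 1.69 ± 0.15.

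Stress defence and autophagy genes rose more often than they fell. Of 29 stress defence genes 13 rose and 5 fell (44.8% and 17.2%, median 0.34), against 12.6% and 13.6% of all genes. With 1 array left out at a time 9 to 12 rose. Only 3 fell without CCR7- replicate 1 or 2 or CCR7+ replicate 2 or 3. Gclc, the first enzyme of glutathione synthesis, rose by 2.22 ± 0.40, Srxn1 by 2.13 ± 0.18 and the metallothionein Mt1 by 1.99 ± 0.21, while Gpx1 fell by 1.28 ± 0.16 and Prdx4 by 1.66 ± 0.32. Of 27 autophagy genes 8 rose and 1 fell (29.6% and 3.70%, median 0.28). Only 5 rose without CCR7- replicate 2 or CCR7+ replicate 1, and none fell when any 1 of the arrays was left out. Sqstm1, an autophagy receptor, rose by 1.92 ± 0.14. Of 25 enzymes of prostaglandins, leukotrienes, retinoids and tryptophan 4 rose and 7 fell (median 0.08): Ptgs2 (COX-2) read 5.40, 4.80 and 5.36 against 8.88, 9.34 and 8.57, and Arg2 rose by 3.40 ± 0.25 from near background. The retinoic acid enzyme Aldh1a2 was near background in both stages (3.31 to 3.53 and 3.83 to 3.95), and its rise was lost without CCR7- replicate 1 or 2 or CCR7+ replicate 2 or 3. Of 35 SNARE and exocytosis genes 9 rose and 4 fell (25.7% and 11.4%, median 0.16), so the falls lay near the 13.6% of all genes. Stx11 was up by 1.76 ± 0.24 and Exoc6 was lower (-1.61 ± 0.22).

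**Figure D4:**
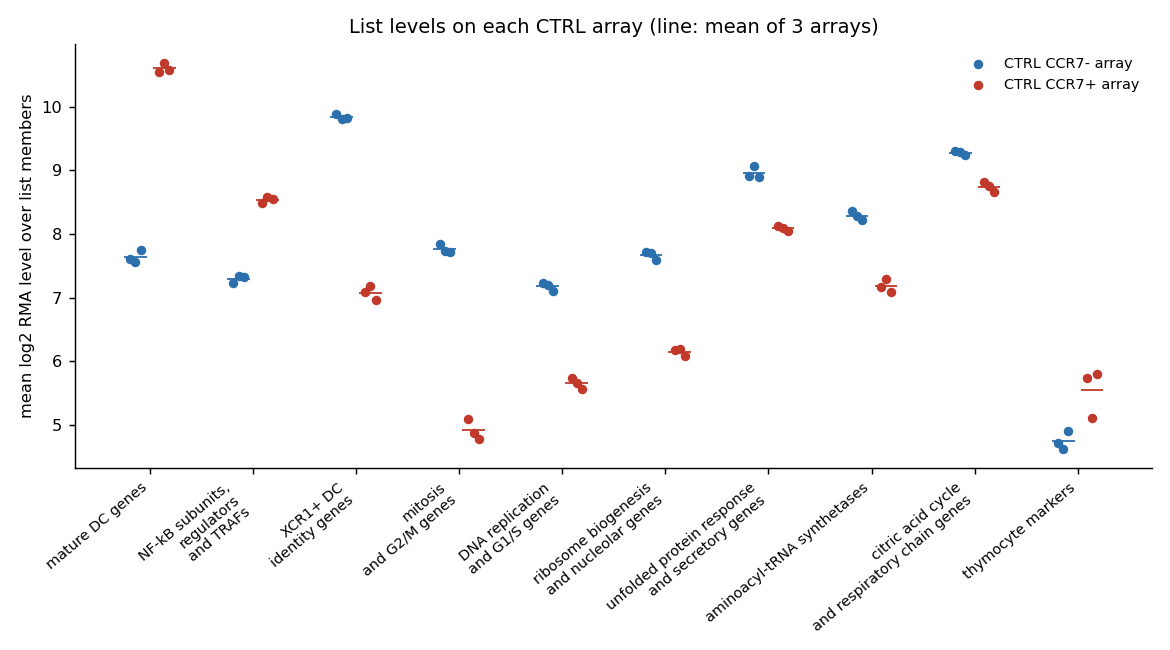
Mean log2 level over the measured members of 10 gene lists, 1 point per CTRL array. In the mitosis list the CCR7- arrays lie at 7.71 to 7.84 and the CCR7+ arrays at 4.79 to 5.10; in the mature DC list they lie at 7.56 to 7.74 and 10.55 to 10.68.

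Type I interferon stimulated genes moved in both directions. Of 37, 7 rose, 11 when only CTRL arrays were fitted, and 10 fell (median -0.16). In the main fit these were 18.9% and 27.0%, against 12.6% and 13.6% of all genes. Epsti1 read 9.14, 9.11 and 9.24 against 12.20, 12.34 and 12.43, and Herc6, which attaches the ubiquitin-like ISG15, rose by 1.67 ± 0.22. The DNA-sensing family member Ifi205 read 11.95, 12.10 and 12.05 against 8.99, 8.93 and 9.15. Of 9 guanylate-binding proteins and related GTPases, which attack intracellular microbes, 6 rose and 1 fell, with a median of 1.15 (2.47 when only genes above near background were kept). Gbp5 read 5.55, 5.88 and 5.55 against 10.04, 9.78 and 9.89 and rose by 4.24 ± 0.25, Gbp4 by 3.96 ± 0.29 and Gbp8 by 3.06 ± 0.33. The one that fell was Irgm1 (-1.93 ± 0.36). The interferon-stimulated response element (ISRE), searched as GAAA and GAAA with 2 bases of any kind between them on both strands, was present in 14 of 28 type I interferon genes (50%), in 4 of the 4 guanylate-binding and related genes that had a window, and in 3.89% of all measured genes. Stretches from -200 to +10 of the start (RefSeq, GRCm38.p6) are shown for Gbp5 (chr3:142496734-142496943, plus) and Gbp3 (chr3:142559844-142560053, plus), 2 genes of the family that both rose, with the reverse complement of the motif in capitals.
Gbp5: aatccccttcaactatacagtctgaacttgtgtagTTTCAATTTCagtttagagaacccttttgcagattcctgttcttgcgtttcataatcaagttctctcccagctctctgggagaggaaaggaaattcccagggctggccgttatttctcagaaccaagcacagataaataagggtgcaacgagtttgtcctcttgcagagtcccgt
Gbp3: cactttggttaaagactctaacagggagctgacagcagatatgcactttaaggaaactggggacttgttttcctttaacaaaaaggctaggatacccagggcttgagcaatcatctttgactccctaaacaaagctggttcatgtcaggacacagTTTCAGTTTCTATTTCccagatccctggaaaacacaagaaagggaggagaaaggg
The letters lie at -165 to -156 in Gbp5, and in 2 overlapping copies at -45 to -36 and -39 to -30 in Gbp3, which rose by 1.15 ± 0.20.

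The comparison was repeated in the Ifnar1-KO and GF arrays, which entered the choice of probesets and the pooled spread but not the CTRL changes. Of the 903 genes that rose by at least 1 in CTRL, 903 were also higher in Ifnar1-KO and 903 in GF mice; 864 rose in Ifnar1-KO (background 9.42% of all genes) and 859 in GF (9.53%). Of the 1484 that fell by at least 1, 1483 and 1482 were lower, and 1311 fell in Ifnar1-KO (background 10.8%) and 1352 in GF (11.8%). None was called in the opposite direction. All 40 leading genes passed in both, with rises of 3.92 to 6.13 in Ifnar1-KO and 4.12 to 6.44 in GF mice. Of the 45 mitosis genes 42 fell in each, of the 31 ribosome biogenesis genes 28 and 27, and of the 27 NF-kB genes 21 and 20 rose. The spread in each test was pooled over all 6 groups, so the calls are not fully independent, although the arrays differ.

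No gene's change was called different between kinds of mice. Stat4 changed by 5.98 in CTRL, 5.83 in Ifnar1-KO and 6.24 in GF mice. Anxa3 changed by 4.71, 5.83 and 5.45. Of the 20 leading rises, 16 were larger in Ifnar1-KO and 17 in GF than in CTRL, and of the 20 leading falls 0 and 2 were, with the choice made on the CTRL arrays. Ccnb2 changed by -4.70 in CTRL, -3.14 in Ifnar1-KO and -4.36 in GF mice. The difference of the change from CTRL was called for 0 of 19938 genes in Ifnar1-KO (limma, smallest adjusted p 0.837) and 0 in GF (0.999), with 901 and 660 genes at an unadjusted p below 0.05. This does not show that maturation was alike.

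**Figure D5:**
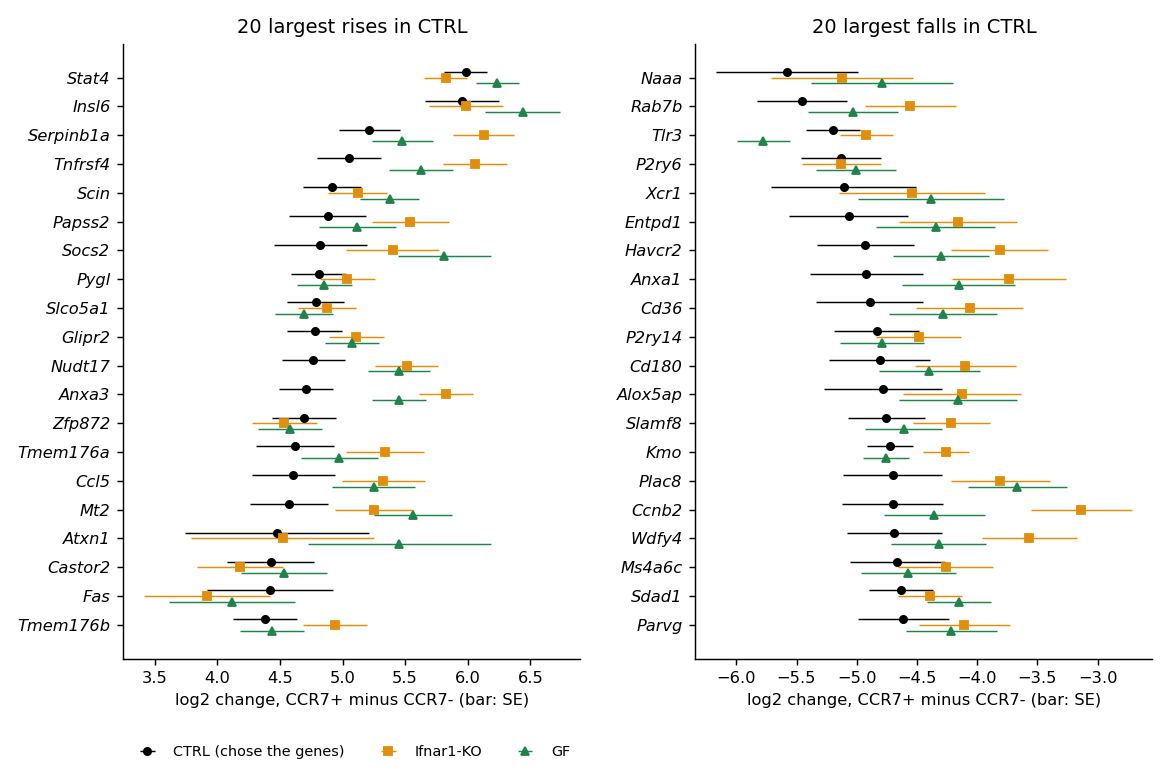
Change (CCR7+ minus CCR7-, log2 ± SE, n = 3 arrays per stage) of the 20 leading rises and 20 leading falls in CTRL, Ifnar1-KO and GF mice. All 40 lie on the same side of 0 in the 3 kinds of mice; the rises were chosen as the largest in CTRL and still lie at 3.92 or more in the others.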

How the data were processed

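Thymic XCR1+ DCs of 3 kinds of mice were measured on 18 arrays, 6 of them CTRL. RNA was isolated with an RNeasy Plus Micro kit and nanogram amounts were amplified with Ovation Pico WTA, per the labels' protocols. The deposited table holds log2 intensities that the authors made by RMA with the R package oligo, per the submitters' processing notes, which name no version. Of 35556 probesets, 21789 had 1 gene symbol, 1621 several and 12146 none; for 999 genes with more than 1 probeset, that with the highest mean over 18 arrays was kept. limma 3.58.1 (R 4.3.3) fitted 6 group means to the 18 arrays, so each standard error uses 1 spread per gene pooled over 6 groups, with p-values adjusted by Benjamini-Hochberg over 19938 genes. The script was tested on simulated data. CTRL arrays with the same replicate number deviated together weakly (r 0.188, 0.147 and 0.100 over genes). The numbers were taken to pair the arrays in the replicate block, which is an alternative. The standard errors, p-values and calls given above come from the fit without this pairing. Members and gene lists were chosen with earlier results of these data known. Genes were named as the 20 largest separated rises and falls, sort genes, up to 4 largest calls per list and direction, members that did not pass, and abundant, flat or variable genes; Cd80, Il2ra, Kif11, Top2a, Hspa5 and Gbp3 were named outside this rule, after their values were seen. A gene list was left out and is not reported here. Promoters and coordinates are from RefSeq, GRCm38.p6, with the first transcribed base as +1. Alternatives were other limma settings, normalization, probeset choice, filters, the replicate block and left-out arrays.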

Additional observations from a re-analysis of the deposited data

How the results depend on the processing

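No named gene that was called turned its direction under any alternative that was run; medians of lists near 0 and genes that were not called did. The count of genes higher in CCR7+ cells, 2514, became 3845 with array weights and 1592 with both CTRL replicate 1 arrays left out; the cause was not tested, beyond the smaller number of arrays in the second. Leaving out 1 array at a time gave 1825 to 2521 genes higher and 2244 to 2440 lower. With replicate number as a block, which assumes that arrays of the same number are pairs, 2661 genes were higher and 2895 lower. Fitting only the CTRL arrays gave 2836 higher and 3333 lower. That fit kept 85.9% of the main rises and 97.4% of the main falls. The differences in maturation change between kinds of mice stayed at 0 genes in every alternative fitted; a fit of the CTRL arrays alone cannot give them. Of 47 list medians, 43 moved by less than their spread when genes at the olfactory receptor level were left out, and 4 moved: guanylate-binding proteins to 2.47, natural killer markers to -0.89, mediator enzymes to -0.48 and red cell markers to -1.25. Under this filter 9 list medians turned from above to below 0, among them these last 3, and under each other alternative 0 to 3 medians turned sign. With array weights the higher genes outnumbered the lower, 3845 to 3364, against 2514 to 2704. Without CCR7+ replicate 2 they also did, 2521 to 2430. Some other settings widened the lead of the lower genes. With arrays centred on their medians 2073 were higher and 2846 lower, and with genes at the olfactory receptor level left out 2035 and 2726. For the 309 named genes, 306 kept their call with the block and 27 lost it with both replicate 1 arrays left out. With 3 arrays per stage the median 95% half-width of a change was 0.27, which limits what can be seen of small changes, and signal near background limits the low genes.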
